A study of Homo sapiens with 12 samples.

Results

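The liver makes most of the clotting and complement proteins of the blood. In the table of 63677 genes counted in Huh7 cells, 42 such genes were picked by name, 22 of coagulation and fibrinolysis with their inhibitors and 20 of the complement system with its regulators. Their names stood in 64 rows, because 6 of the 42 names belonged to more than 1 identifier; the 22 extra rows held 0 counts and were set aside. Of the 42 genes, 41 passed the filter on low counts (a minimum of 10 counts, reached in 3 samples or more), which 17092 genes of the whole table passed. The exception was F9, factor IX of the clotting cascade, which was listed at 0 counts in each of the 12 samples. That count allows F9 a level of up to 0.0707 to 0.124 CPM per sample, where 3 counts are the limit that a count of 0 allows, and such limits cover counting error only.

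Huh7 cells descend from a human hepatocellular carcinoma, so all samples came from 1 line of hepatocyte origin. The 4 groups held 3 samples each and were untreated cells, cells treated with GO at 400 µg/mL, cells treated with GO–Rg3 at 400 µg/mL, and cells treated with GO–Rg3–DOX at 100 µg/mL, with a treatment time of 6 h. GO is graphene oxide in flakes, Rg3 is a ginsenoside bound to the flakes, and DOX is the anthracycline doxorubicin loaded on top. Cells given DOX alone were not analysed here. GO–Rg3–DOX was given at a lower dose than GO–Rg3, so that drug and dose cannot be told apart between these groups, and all treatments were compared with the same 3 untreated samples. The labels do not say whether the samples of a group were separate cultures, and the p-values then measure only the spread between these samples, which may be technical.

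Coagulation is a chain of serine proteases that circulate as inactive precursors and activate each other on cell surfaces until thrombin turns fibrinogen into a fibrin clot. Antithrombin and the protein C system hold the chain back, and plasmin dissolves the clot. Complement works on the same principle. Antibodies, sugars or spontaneous turnover start a protease chain that cleaves C3 and then C5, and the terminal components assemble into a membrane pore. Hepatocytes secrete nearly all of these proteins, and hepatoma lines keep the expression of many of them.

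RNA was measured by sequencing of polyadenylated transcripts, as raw counts per gene. Totals ran from 27802871 to 38877420 counts per sample, so that 1 CPM (CPM is the count scaled to library size after TMM normalization) stood for 24.3 to 42.5 counts. Mitochondrially encoded genes took 5.31% to 6.28% of the counts in untreated samples, 12.1% to 24.1% after GO, 6.89% to 7.42% after GO–Rg3 and 12.8% to 19.4% after GO–Rg3–DOX, and GO replicate 1 had the highest share of all. The part of this shift in the values given here was not tested, except that leaving the mitochondrial genes out of the normalization was run as an alternative. All 10 hepatocyte markers were expressed, with ALB at 4139 ± 39.02 CPM and AFP at 12287 ± 139 CPM (mean ± SD, n = 3) in untreated cells. Endothelial markers summed to 0.306 to 0.448 CPM in untreated samples, and PECAM1 and KDR were at 0 counts in all 12 samples. Of the leukocyte markers, PTPRC and CD68 stayed under 1 CPM in every group, while LYZ stood at 150.1 ± 2.54 CPM. In RNA from whole cultures, fewer cells expressing a gene and less RNA per cell cannot be told apart.

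The genes covered a wide range of levels in untreated cells. Levels between genes are compared per length, as CPM per kb of exon. The length joined the exons of all annotated transcripts of a gene, so the order between genes depends on that choice. VTN, which encodes vitronectin, was the highest at 844 ± 7.14 CPM per kb (mean ± SD, n = 3), and FGB, the fibrinogen beta chain, came next at 174 ± 2.18. Prothrombin (F2) stood at 158 ± 7.55, C3 at 91.6 ± 0.524 and FGA, the fibrinogen alpha chain, at 85.4 ± 0.912 CPM per kb. None of these 5 overlapped with its neighbour in the order. Further down, the values of neighbours overlapped between samples for F5 and C4BPA, MASP1 and C4BPB, PLG and F10, C1S and MBL2, and C1R, F11, F13B and C8B. At the low end, MASP2, C8G, KLKB1, C6, C4A, C4B and C9 lay below 0.5 CPM per kb. C4A and C4B are near-identical copies whose reads the counting could have split or left out, so their levels may be too low. Their sum was 0.734 ± 0.169 CPM. Together the 42 genes took 0.650% to 0.656% of all counts in untreated samples.

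**Figure D1:**
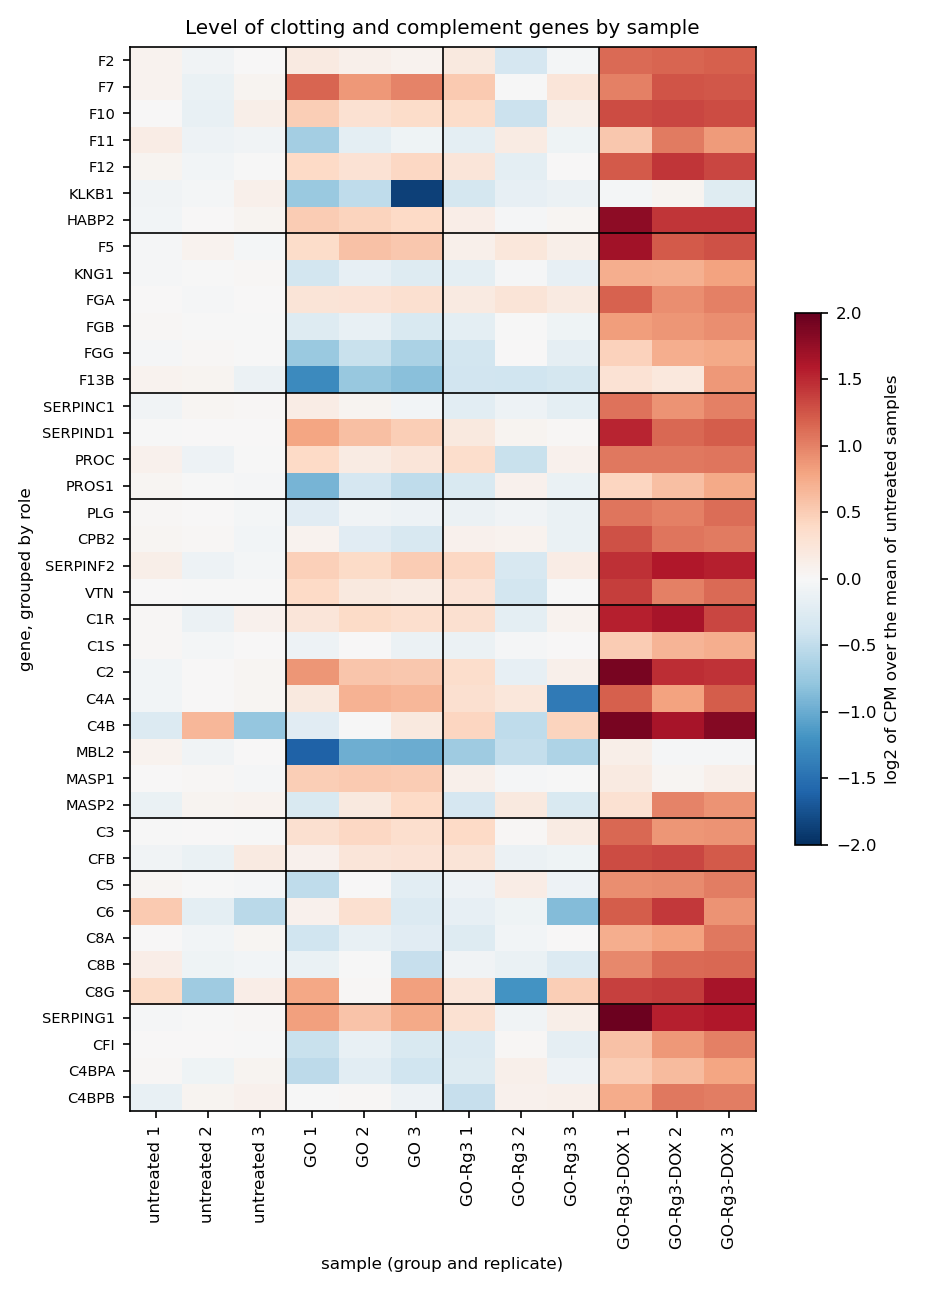
Each row is a gene, grouped by role from clotting proteases at the top to complement regulators at the bottom, and each column is 1 of the 12 samples. The colour gives log2 of the CPM over the mean of the 3 untreated samples, limited to -2 and 2 with no pseudocount, and F9 and C9 are left out because they had from 0 to 2 counts in untreated samples. The 3 GO–Rg3–DOX columns are red in nearly every row, while the GO columns mix red and blue.

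After GO–Rg3–DOX nearly all of these genes were higher relative to the other RNA counted in a sample. The amount of RNA per cell was not measured, so a rise here means a rise in relative level. Compared with untreated cells, 36 of the 41 genes were higher at an adjusted p below 0.01 and 0 were lower, and 22 passed 2-fold, all of them upward. Among all 17092 genes tested, 25.5% were higher, 30.5% were lower and 30.8% passed 2-fold in either direction. The median log2 fold change of the 41 genes was 1.07, beside -0.06 over all genes. C9 passed the filter on low counts only through the GO–Rg3–DOX samples, so that its call adds no support. Among the 40 genes without it, 35 were higher and 21 past 2-fold, with a median of 1.06. Prothrombin, the fibrinogen alpha chain, protein C, plasminogen, vitronectin and C1 inhibitor were among the genes past 2-fold. The 5 genes that did not pass the test were F13B, KLKB1, C4A, MBL2 and MASP1. The count of 0 for lower genes came from edgeR's quasi-likelihood test, and it was also 0 at an unadjusted p below 0.05 and with DESeq2. The summed level of the 42 genes was 11784 to 13424 CPM after GO–Rg3–DOX and 5929 to 6027 CPM in untreated samples. As a share of all raw counts, which amounts to scaling by library totals, it was 0.989% to 1.06% against 0.650% to 0.656%. Those totals include the mitochondrial counts.

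The size of that rise depended on how libraries were scaled. Scaling by library totals alone moved the all-gene median from -0.06 to -0.47, and the share of higher genes among all calls from 45.5% to 22.8%. The median of the 41 genes then was 0.65, with 24 higher, 0 lower and 7 past 2-fold. Relative to the median of all genes, the median of the 41 genes was 1.13 higher with TMM and 1.12 higher with library totals, on the log2 scale. Rescaling a library shifts all its genes by nearly the same amount, so this difference cannot test the choice of scaling. The calls of F11, FGG, PROS1, KNG1, C6, C8A, C8G, CFI, C1S, MASP2, C4BPA and C4BPB were lost with library totals. No gene called in this comparison changed sign under any setting run.

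**Figure D2:**
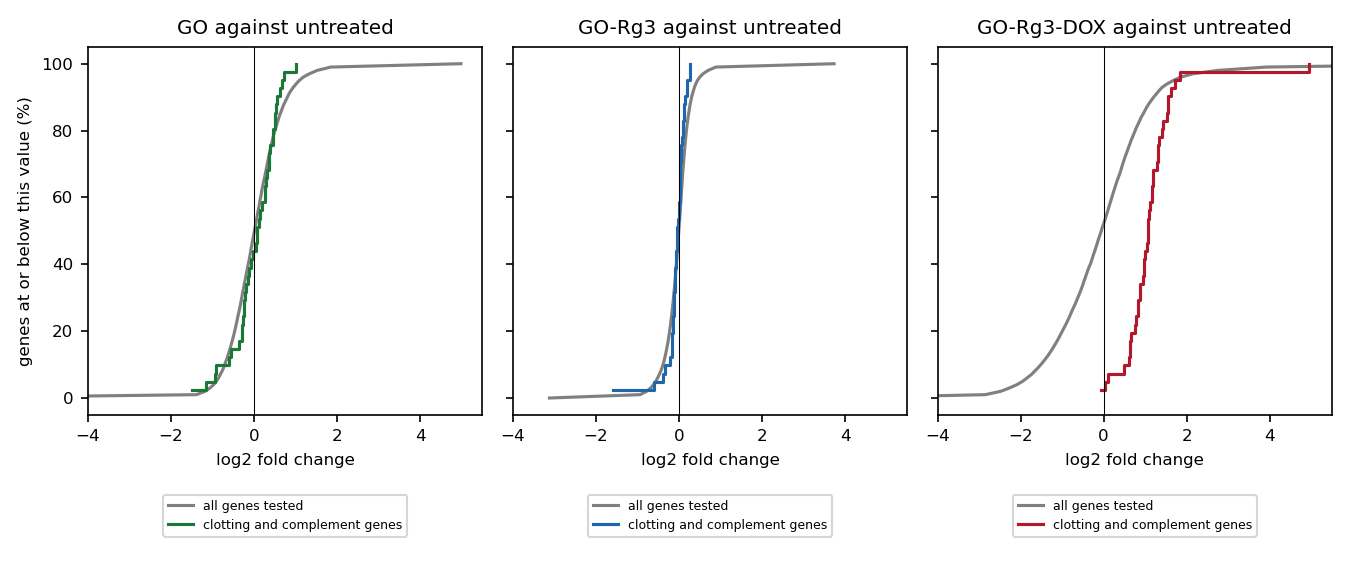
The share of genes (vertical axis, in percent) at or below each log2 fold change (horizontal axis) against untreated samples, for the 41 clotting and complement genes and for all genes tested, in 1 panel for each of the 3 treatments. The curve of the 41 genes lies over that of all genes after GO and GO–Rg3 and lies to its right after GO–Rg3–DOX, with medians of 1.07 and -0.06.

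After GO alone some of the genes moved, in both directions, and their counts were near the shares of all genes. Of the 41 genes, 7 were higher and 4 were lower than in untreated cells, where 12.1% and 15.4% of all genes were, and 2 passed 2-fold, where 6.47% of all genes did. The higher genes were F5, F7, SERPIND1, SERPING1, HABP2, C2 and MASP1, and the lower genes were F13B, FGG, PROS1 and MBL2. Factor VII (F7) was the gene past 2-fold upward and mannose-binding lectin (MBL2) the gene past 2-fold downward. The median log2 fold change of the 41 genes was 0.07, beside 0.01 over all genes. With library totals alone the median of all genes moved to -0.11, the share of higher genes among all calls went from 44.01% to 30.6%, and 5 of the 41 genes were higher and 4 lower. Without untreated replicate 1, 4 were higher. No gene was past 2-fold without GO replicate 1, and 1 was without untreated replicate 2.

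After GO–Rg3 no change of these genes was detected. By edgeR's quasi-likelihood test 0 genes were higher and 0 lower than in untreated cells, beside 0.0585% and 0.105% of all genes, and 0 passed 2-fold, beside 0.0585%. At an unadjusted p below 0.05, 1 was higher and 1 lower, 0 of them past 2-fold. DESeq2 called 0 higher and 1 lower, which was MBL2. Leaving out C9, which was near 0 counts in both groups, log2 fold changes ran from -0.59 for MBL2 to 0.27 for F7. Of the 3 GO–Rg3 samples, replicate 2 was the lowest for F2, F10, PROC, SERPINF2 and VTN and replicate 1 the highest.

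**Figure D3:**
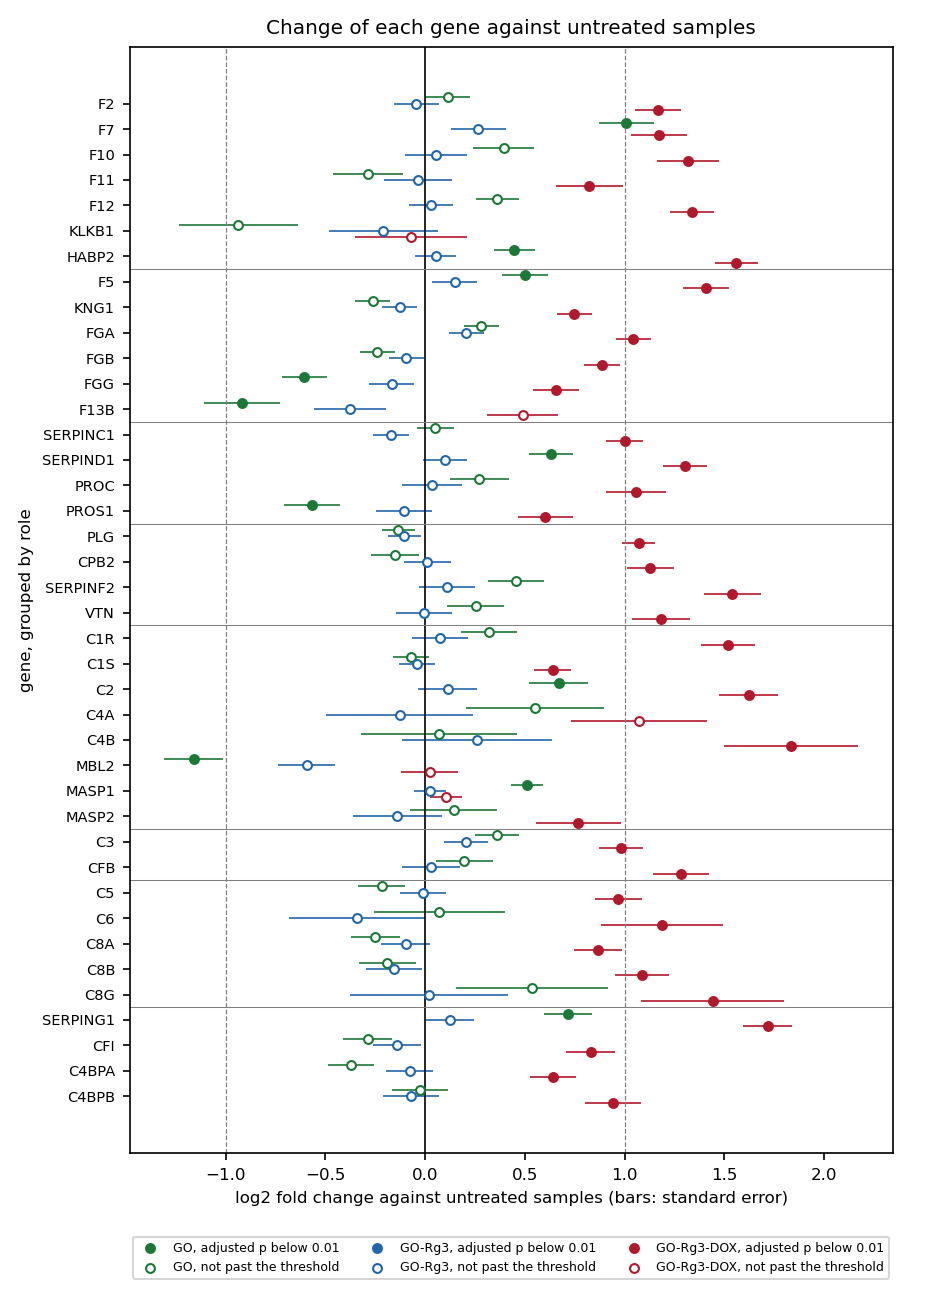
Log2 fold change against untreated samples (horizontal axis) of 40 genes, by role from clotting proteases at the top to complement regulators at the bottom, after GO (green), GO–Rg3 (blue) and GO–Rg3–DOX (red). Bars are standard errors, filled points have an adjusted p below 0.01, dashed lines mark 2-fold, and C9 is left out for its near-zero untreated counts. The red points stand at the right, apart from KLKB1, MBL2 and MASP1 near 0, and the green points fall on both sides of 0.

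The clotting proteases F2, F7, F9, F10, F11, F12, KLKB1 and HABP2 are precursors of serine proteases. Of the 7 tested, 6 rose after GO–Rg3–DOX, beside 25.5% of all genes, with a median log2 fold change of 1.17. F2, the precursor of thrombin, stood at 419, 381 and 402 CPM in the untreated samples, 452, 428 and 419 after GO, 457, 318 and 392 after GO–Rg3 and 883, 894 and 921 after GO–Rg3–DOX. All GO–Rg3–DOX samples lay above the other 9, while the GO–Rg3 samples spread to both sides of the untreated ones. F2 had a log2 fold change of 1.17 (SE 0.11, adjusted p = 3.7e-07) after GO–Rg3–DOX. Factor X (F10), whose active form cuts prothrombin, was measured at 16.2, 14.5 and 17.4 CPM in the untreated samples, 22.6, 19.9 and 20.7 after GO, 20.7, 11.8 and 17.3 after GO–Rg3 and 39.7, 40.4 and 39.6 after GO–Rg3–DOX. Its log2 fold change after GO–Rg3–DOX was 1.32 (SE 0.15, adjusted p = 2.4e-06), and the samples of this group lay above all others, while GO–Rg3 samples overlapped with untreated ones. F12, the factor XII that starts the contact pathway, had 31.96, 29.5 and 30.5 CPM in the untreated samples, 40.3, 37.3 and 40.7 after GO, 36.2, 26.8 and 30.8 after GO–Rg3 and 72.0, 82.7 and 77.7 after GO–Rg3–DOX. F12 rose by 1.34 (SE 0.11, adjusted p = 6.2e-08) on the log2 scale after GO–Rg3–DOX, and its value after GO, 0.36 (adjusted p = 0.0156), did not pass the test and did with DESeq2, with only the 6 samples compared or with genes of 10 counts in every sample. F12 shares exon bases with GRK6 on the other strand. HABP2, a protease that can activate factor VII, was at 68.8, 72.0 and 74.0 CPM in the untreated samples, 101.6, 97.1 and 94.1 after GO, 78.7, 70.6 and 73.4 after GO–Rg3 and 248, 193 and 192 after GO–Rg3–DOX. Every GO–Rg3–DOX sample was above all other samples, and GO samples were above untreated ones. HABP2 had a log2 fold change of 0.45 (SE 0.10, adjusted p = 0.00321) after GO and 1.56 (SE 0.11, adjusted p = 7.9e-09) after GO–Rg3–DOX. Its call after GO did not hold without untreated replicate 1, untreated replicate 2 or untreated replicate 3 (log2 fold change 0.42 to 0.47, adjusted p = 0.0112 to 0.0194) or with library totals alone.

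F7, which starts clotting together with tissue factor, was, beside HABP2, the clotting protease that rose after GO (chromosome 13 from 113760102 to 113774999 on GRCh37). F7 was at 12.96, 11.3 and 12.9 CPM in the untreated samples, 27.85, 22.6 and 24.5 after GO, 17.8, 12.2 and 14.6 after GO–Rg3 and 24.8, 29.8 and 29.2 after GO–Rg3–DOX. The GO and the GO–Rg3–DOX samples both lay above all untreated and GO–Rg3 samples and overlapped with each other. The log2 fold change of F7 was 1.01 (SE 0.14, adjusted p = 6.5e-05) after GO, 0.27 (adjusted p = 0.438) after GO–Rg3 and 1.17 (SE 0.14, adjusted p = 2.5e-06) after GO–Rg3–DOX. Between GO–Rg3 and GO it was -0.74 (SE 0.14, adjusted p = 0.00142), so F7 was lower after GO–Rg3 than after GO at the same dose. The call did not hold with only the 6 samples compared or with library totals alone. Of the remaining proteases, F11 (4.57 to 5.42 CPM untreated) rose after GO–Rg3–DOX by 0.82 (adjusted p = 5.0e-04). KLKB1, the prekallikrein gene, stayed at 0.198 to 0.777 CPM in all samples and did not pass the test, with -0.94 (adjusted p = 0.0205) after GO and -0.07 (adjusted p = 0.833) after GO–Rg3–DOX.

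The fibrinogen chains are encoded side by side on chromosome 4, between 155484163 and 155534119 (GRCh37), a span of 49.96 kb, and their proteins are secreted as 1 assembled molecule. Their promoters are shown as a description, and the part of these sequences in the changes after GO was not tested. They were taken from RefSeq on build GRCh38.p14, from 250 bases before to 50 after the annotated start, 5′ to 3′ on the strand of the gene. FGB lies at chr4:154562730-154563029, plus strand, FGA at chr4:154590693-154590992, minus strand and FGG at chr4:154612607-154612906, minus strand. Capitals mark matches on either strand to GTTAAT (a motif of liver promoters), CTGGGAA (an element of acute phase genes bound by STAT3), TTGCNNAA (C/EBP factors) or CAAAGT (a part of an HNF4 site).
FGB promoter: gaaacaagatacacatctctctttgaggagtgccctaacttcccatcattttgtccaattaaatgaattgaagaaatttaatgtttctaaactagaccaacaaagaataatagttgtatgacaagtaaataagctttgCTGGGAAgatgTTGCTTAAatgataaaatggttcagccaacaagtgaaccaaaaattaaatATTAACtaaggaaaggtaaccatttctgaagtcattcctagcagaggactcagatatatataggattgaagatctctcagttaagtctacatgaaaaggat
FGA promoter: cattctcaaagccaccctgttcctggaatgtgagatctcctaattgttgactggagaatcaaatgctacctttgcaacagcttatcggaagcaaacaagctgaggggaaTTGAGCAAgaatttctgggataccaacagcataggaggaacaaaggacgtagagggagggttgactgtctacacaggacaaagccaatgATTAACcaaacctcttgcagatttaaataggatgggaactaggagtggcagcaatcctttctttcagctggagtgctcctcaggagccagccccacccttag
FGG promoter: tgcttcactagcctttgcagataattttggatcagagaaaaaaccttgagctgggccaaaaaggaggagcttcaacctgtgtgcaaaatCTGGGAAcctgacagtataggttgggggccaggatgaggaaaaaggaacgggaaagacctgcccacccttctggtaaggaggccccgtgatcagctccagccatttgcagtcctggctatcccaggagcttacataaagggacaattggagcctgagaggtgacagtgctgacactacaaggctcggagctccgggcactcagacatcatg
F7 and MBL2, the genes past 2-fold after GO, are shown beside them, F7 at chr13:113105541-113105840, plus strand and MBL2 at chr10:52772735-52773034, minus strand.
F7 promoter: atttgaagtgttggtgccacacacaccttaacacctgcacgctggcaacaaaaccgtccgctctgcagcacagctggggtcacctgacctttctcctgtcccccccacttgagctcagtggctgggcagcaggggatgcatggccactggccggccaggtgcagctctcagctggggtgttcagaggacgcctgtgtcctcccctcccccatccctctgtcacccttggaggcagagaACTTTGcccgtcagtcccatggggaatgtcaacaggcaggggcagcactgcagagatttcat
MBL2 promoter: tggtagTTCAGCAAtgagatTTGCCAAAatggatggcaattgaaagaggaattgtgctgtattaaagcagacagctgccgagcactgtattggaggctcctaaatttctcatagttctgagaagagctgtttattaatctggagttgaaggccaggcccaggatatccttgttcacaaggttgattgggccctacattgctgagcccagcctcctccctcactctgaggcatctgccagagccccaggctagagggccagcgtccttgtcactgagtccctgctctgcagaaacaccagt
The GTTAAT motif and the C/EBP motif were found in FGB and FGA and not in this window of FGG, and the STAT3-type element was found in FGB and FGG. The HNF4 part site was found in F7 and the C/EBP motif in MBL2.

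Of the 42 genes, 34 had a promoter in the RefSeq table, and SERPINC1, SERPINF2, SERPING1, C3, C4A, C4B, C8G and C1S had none. The GTTAAT motif was in 10 of the 34 (29.4%) and 6.88% of all promoters, which numbered 35116. The C/EBP motif was in 9 of the 34 (26.5%) and 10.5% of all promoters, and the HNF4 part site in 8 of the 34 (23.5%) and 11.9% of all promoters. For the STAT3-type element the count was 6 of the 34 (17.6%) and 10.8% of all promoters, and for a TATA box (TATAAA) it was 2 of the 34 (5.88%) and 11.5% of all promoters. Each was searched on both strands, and the C/EBP motif and its reverse complement share some forms. A match in letters is a description and not evidence of binding.

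FGA was at 335, 331 and 338 CPM in the untreated samples, 399, 404 and 415 after GO, 380.3, 399.8 and 377 after GO–Rg3 and 758, 634 and 676 after GO–Rg3–DOX. FGG, the gamma chain, was at 208, 215 and 209 CPM in the untreated samples, 126.5, 154 and 135 after GO, 164, 213 and 187 after GO–Rg3 and 292, 348 and 357 after GO–Rg3–DOX. After GO the FGA samples were all above and the FGG samples all below the untreated ones. FGB was at 769.7, 757 and 751 CPM in the untreated samples, 633, 682 and 613 after GO, 662, 754 and 719 after GO–Rg3 and 1358, 1397 and 1454 after GO–Rg3–DOX. FGG fell after GO by 0.60 (SE 0.11, adjusted p = 7.7e-04) on the log2 scale, while FGA at 0.28 (adjusted p = 0.0183) and FGB at -0.24 (adjusted p = 0.0384) did not pass the test; DESeq2 and the fit with a GC offset called FGA. As a check that no scaling between libraries can move, the ratio of FGA to FGG per length within a sample was 1.48, 1.41 and 1.48 in untreated samples and 2.90, 2.41 and 2.82 after GO. The same ratio was 2.14, 1.72 and 1.86 after GO–Rg3 and 2.39, 1.67 and 1.74 after GO–Rg3–DOX, and no untreated sample reached any treated one. These ratios were chosen after the values were seen and were not tested. After GO–Rg3–DOX all chains rose, FGA by 1.04 (SE 0.09, adjusted p = 7.9e-08), FGB by 0.89 (adjusted p = 4.6e-07) and FGG by 0.66 (adjusted p = 1.2e-04) on the log2 scale.

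Factor V (F5), the cofactor of active factor X, was at 154, 164 and 153 CPM in the untreated samples, 203, 235 and 228 after GO, 169, 183 and 169.5 after GO–Rg3 and 502, 368 and 380.4 after GO–Rg3–DOX. It was higher in all GO than in all untreated samples and highest after GO–Rg3–DOX, where replicate 1 stood above the other two. F5 had a log2 fold change of 0.50 (SE 0.11, adjusted p = 0.00294) after GO and 1.41 (SE 0.12, adjusted p = 6.1e-08) after GO–Rg3–DOX. The GO call did not hold without untreated replicate 1, untreated replicate 3, GO replicate 2 or GO replicate 3 (log2 fold change 0.46 to 0.49, adjusted p = 0.0113 to 0.0167) or with library totals alone. F13B, the carrier subunit of the fibrin-linking factor XIII, was at 3.65, 3.61 and 3.20 CPM in the untreated samples, 1.45, 2.06 and 1.95 after GO, 2.68, 2.64 and 2.73 after GO–Rg3 and 4.28, 4.03 and 6.37 after GO–Rg3–DOX. Its GO samples lay below and its GO–Rg3–DOX samples above all untreated ones. F13B fell after GO by 0.92 (SE 0.19, adjusted p = 0.00149) on the log2 scale, and by 0.60 with a GC offset, a call that was lost when the replicate block was added to the offset (adjusted p = 0.0106). F13B had 0.49 (adjusted p = 0.0237) after GO–Rg3–DOX, which passed only without GO–Rg3–DOX replicate 2 (log2 fold change 0.64, adjusted p = 0.00942), among the libraries left out, and with DESeq2 or a GC offset. KNG1, which encodes high molecular weight kininogen, rose after GO–Rg3–DOX by 0.75 (adjusted p = 2.2e-06). It lay at 84.4 to 86.9 CPM untreated and 140.3 to 149 CPM after treatment.

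All 4 genes of the inhibitors and the protein C system rose after GO–Rg3–DOX, beside 25.5% of all genes, with a median log2 fold change of 1.03. SERPINC1 encodes antithrombin, the main inhibitor of thrombin and active factor X. It was at 68.7, 74.2 and 73.6 CPM in the untreated samples, 80.2, 75.1 and 69.1 after GO, 62.1, 67.2 and 63.1 after GO–Rg3 and 154, 134 and 145 after GO–Rg3–DOX. The GO–Rg3 samples lay below and the GO–Rg3–DOX samples above all untreated ones. SERPINC1 had a log2 fold change of 0.999 (SE 0.09, adjusted p = 1.9e-07) after GO–Rg3–DOX and 0.05 (adjusted p = 0.673) after GO. SERPIND1, heparin cofactor II, was at 82.4, 83.1 and 83.4 CPM in the untreated samples, 143, 125.4 and 116 after GO, 95.4, 86.4 and 84.5 after GO–Rg3 and 238, 183 and 193 after GO–Rg3–DOX. The GO samples lay above all untreated and GO–Rg3 samples, and GO–Rg3–DOX above all of them. SERPIND1 rose by 0.63 (SE 0.11, adjusted p = 4.4e-04) after GO and 1.30 (SE 0.11, adjusted p = 8.9e-08) after GO–Rg3–DOX on the log2 scale, and was lower after GO–Rg3 than after GO at -0.53 (SE 0.11, adjusted p = 0.00304). The last call did not hold without GO–Rg3 replicate 2 or GO–Rg3 replicate 3 (log2 fold change -0.51 to -0.50, adjusted p = 0.0103 to 0.0203). PROC, the gene of the anticoagulant protease protein C, was at 83.7, 73.3 and 78.3 CPM in the untreated samples, 104, 87.9 and 92.5 after GO, 100.5, 57.5 and 83.0 after GO–Rg3 and 163, 162 and 164 after GO–Rg3–DOX. Its GO samples lay above the untreated ones, its GO–Rg3 samples overlapped with both, and its log2 fold change after GO–Rg3–DOX was 1.06 (SE 0.15, adjusted p = 1.6e-05). PROS1, the cofactor protein S, went the other way after GO. It was at 149 to 154 CPM untreated and 79.6 to 119.9 after GO, and at 204 to 254 after GO–Rg3–DOX. The log2 fold change of PROS1 was -0.57 (adjusted p = 0.0045) after GO and 0.60 (adjusted p = 0.00131) after GO–Rg3–DOX. The GO call of PROS1 did not hold without untreated replicate 1, untreated replicate 2, untreated replicate 3, GO replicate 1 or GO replicate 3 (log2 fold change -0.59 to -0.42, adjusted p = 0.0119 to 0.0177), with a GC offset or with only the 6 samples compared.

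The 4 fibrinolysis genes showed no call after GO, where 12.1% of all genes were higher and 15.4% lower. All 4 of them rose after GO–Rg3–DOX, each past 2-fold. Of all genes, 25.5% were higher there and 30.8% passed 2-fold in either direction. PLG, the precursor of plasmin, was at 61.6, 60.5 and 59.0 CPM in the untreated samples, 51.7, 57.3 and 56.0 after GO, 55.7, 57.7 and 55.0 after GO–Rg3 and 127.3, 122 and 131 after GO–Rg3–DOX. Its GO and GO–Rg3 samples lay below and its GO–Rg3–DOX samples above the untreated ones, and its log2 fold change after GO–Rg3–DOX was 1.07 (SE 0.08, adjusted p = 3.1e-08). CPB2 encodes the carboxypeptidase TAFI that protects fibrin from plasmin, and SERPINF2 encodes the plasmin inhibitor alpha 2-antiplasmin. CPB2 was at 19.3, 19.1 and 18.2 CPM in the untreated samples, 19.8, 16.1 and 15.1 after GO, 19.9, 19.9 and 17.2 after GO–Rg3 and 45.6, 39.4 and 38.5 after GO–Rg3–DOX. SERPINF2 was at 171, 147 and 154 CPM in the untreated samples, 219, 205 and 224 after GO, 209, 125.4 and 175 after GO–Rg3 and 433, 479 and 459.7 after GO–Rg3–DOX. For both genes the GO–Rg3–DOX samples lay above all others, and for SERPINF2 the GO samples lay above the untreated ones as well. After GO–Rg3–DOX CPB2 had a log2 fold change of 1.13 (SE 0.12, adjusted p = 7.2e-07) and SERPINF2 of 1.54 (SE 0.14, adjusted p = 2.2e-07). For SERPINF2 the value after GO was 0.46 (adjusted p = 0.0173), which passed with DESeq2 and with only the 6 samples compared. VTN, whose product vitronectin is an adhesive plasma protein that also blocks the terminal complement complex, was at 1623, 1597 and 1602 CPM in the untreated samples, 2108, 1837 and 1804 after GO, 1947, 1248 and 1607 after GO–Rg3 and 4173, 3229 and 3533 after GO–Rg3–DOX. VTN was above the untreated samples in all GO samples, and of all the genes it rose the most in CPM after GO–Rg3–DOX, and replicate 1 was the highest. VTN had a log2 fold change of 1.18 (SE 0.14, adjusted p = 3.6e-06), and 17.3% of its exon bases also belong to a second gene model, which had 0 counts.

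In the classical and lectin pathways, 5 of 8 genes rose after GO–Rg3–DOX, beside 25.5% of all genes, and 3 did not pass. C1R and C1S encode the proteases of the first component. C1R was at 6.53, 5.95 and 6.81 CPM in the untreated samples, 7.60, 8.35 and 8.15 after GO, 8.001, 5.59 and 6.72 after GO–Rg3 and 18.8, 20.2 and 16.3 after GO–Rg3–DOX. Its GO samples lay above the untreated ones, its GO–Rg3–DOX samples were above the other 9 and its log2 fold change was 1.52 (SE 0.14, adjusted p = 1.5e-07); C1R shares 14.3% of its exon bases with C1RL on the same strand. C1S, at 35.5 to 36.98 CPM untreated and 51.8 to 59.9 CPM after GO–Rg3–DOX, rose by 0.64 (adjusted p = 1.7e-05). C2, the protease subunit of the C3 convertase, was at 25.3, 26.2 and 27.0 CPM in the untreated samples, 48.4, 38.5 and 38.1 after GO, 33.3, 23.5 and 28.1 after GO–Rg3 and 97.6, 72.6 and 71.3 after GO–Rg3–DOX. It was higher in GO than in untreated samples and highest after GO–Rg3–DOX, with replicate 1 at the top in both. C2 had a log2 fold change of 0.67 (SE 0.15, adjusted p = 0.00226) after GO and 1.62 (SE 0.15, adjusted p = 2.0e-07) after GO–Rg3–DOX. Its GO call did not hold without untreated replicate 1 or untreated replicate 2 (log2 fold change 0.64 to 0.67, adjusted p = 0.01 to 0.0124). C4B, a gene of the fourth component, was at 0.265, 0.511 and 0.188 CPM in the untreated samples, 0.274, 0.321 and 0.368 after GO, 0.433, 0.225 and 0.437 after GO–Rg3 and 1.19, 1.01 and 1.14 after GO–Rg3–DOX. Only the last group stood apart, and C4B had a log2 fold change of 1.83 (SE 0.33, adjusted p = 1.8e-04) there. C4A at 0.397 to 0.424 CPM untreated and 0.719 to 0.953 after GO–Rg3–DOX did not pass, at 1.07 (adjusted p = 0.0115), and did with DESeq2. The sum of C4A and C4B was 0.612 to 0.927 CPM in untreated samples and 1.73 to 2.14 after GO–Rg3–DOX. It does not depend on how counted reads were split between these copies. The paper reports uniquely mapped reads, so reads that fit both copies may be missing from the sum.

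MBL2 and MASP1 encode a sugar-binding lectin and the protease that circulates with it. Neither passed the test after GO–Rg3–DOX, and after GO they moved in opposite directions. MBL2 (chromosome 10 from 54525140 to 54532544 on GRCh37) was at 15.8, 14.4 and 15.1 CPM in the untreated samples, 4.90, 7.65 and 7.56 after GO, 9.24, 10.9 and 9.88 after GO–Rg3 and 16.4, 14.8 and 14.8 after GO–Rg3–DOX. All GO samples were below all GO–Rg3 samples, which were below all untreated ones, and the GO–Rg3–DOX samples overlapped with the untreated ones. MBL2 fell after GO by 1.16 (SE 0.15, adjusted p = 3.5e-05) on the log2 scale, had -0.59 (adjusted p = 0.0518) after GO–Rg3 and 0.02 (adjusted p = 0.9) after GO–Rg3–DOX, and 0.57 (adjusted p = 0.0113) between GO–Rg3 and GO. MASP1 was at 124, 124.9 and 121 CPM in the untreated samples, 174, 178 and 176 after GO, 132, 122 and 123 after GO–Rg3 and 139.7, 126.9 and 132 after GO–Rg3–DOX. All GO samples were above all 9 others. MASP1 had a log2 fold change of 0.51 (SE 0.08, adjusted p = 2.0e-04) after GO, 0.02 (adjusted p = 0.936) after GO–Rg3 and 0.11 (adjusted p = 0.256) after GO–Rg3–DOX, and was lower after GO–Rg3 than after GO at -0.49 (SE 0.08, adjusted p = 6.8e-04). The ratio of MBL2 to MASP1 per length within a sample was 0.461, 0.418 and 0.452 untreated, 0.102, 0.156 and 0.156 after GO, 0.254, 0.324 and 0.293 after GO–Rg3 and 0.426, 0.422 and 0.407 after GO–Rg3–DOX. These ratios, picked after the values were seen, separate GO and GO–Rg3 from each other and from untreated cells. MASP2, the protease that cleaves C4, rose after GO–Rg3–DOX by 0.77 (adjusted p = 0.0052), with 2.14 to 2.47 CPM untreated and 2.93 to 4.71 CPM after treatment, and that call did not hold without untreated replicate 1, untreated replicate 2, untreated replicate 3, GO–Rg3–DOX replicate 2 or GO–Rg3–DOX replicate 3 (log2 fold change 0.66 to 0.81, adjusted p = 0.0131 to 0.0289).

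**Figure D4:**
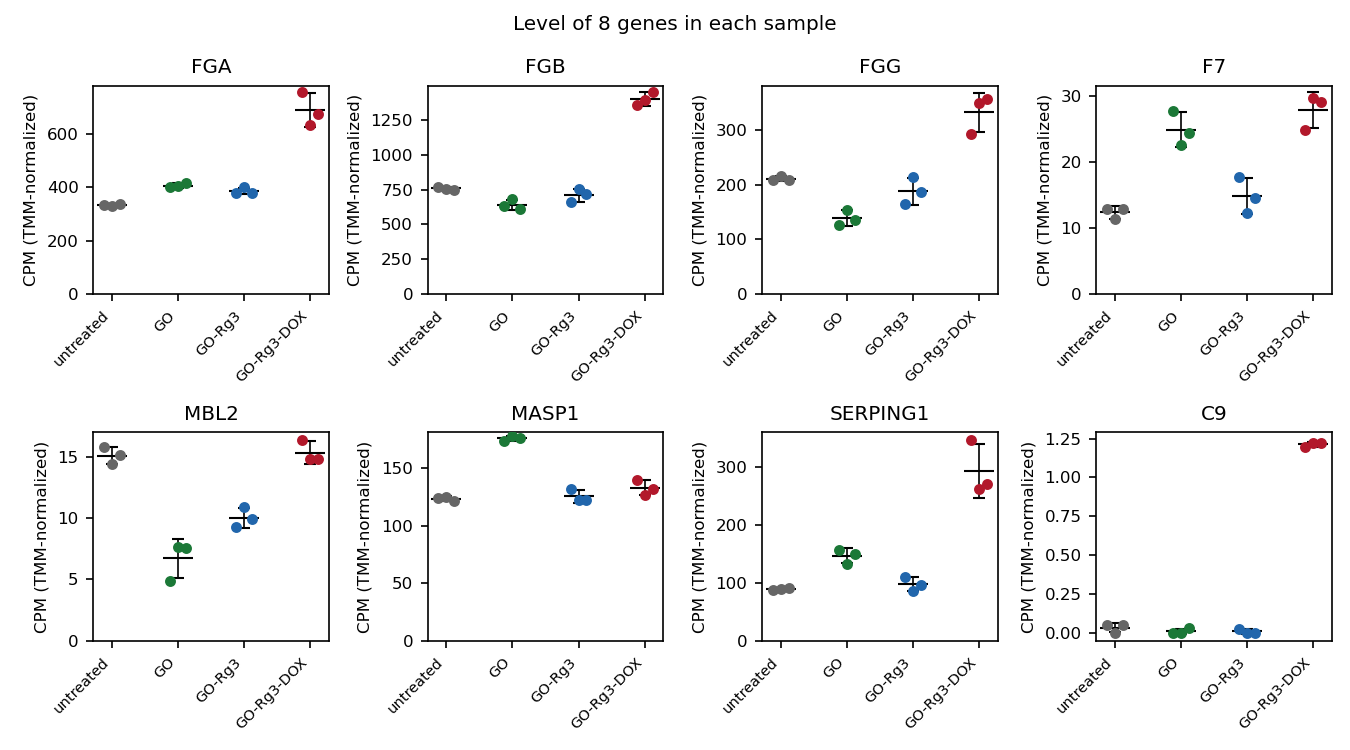
TMM-normalized CPM (vertical axis) of FGA, FGB, FGG, F7, MBL2, MASP1, SERPING1 and C9 in each sample, with groups on the horizontal axis. Points are samples, and bars give the mean and SD of 3 samples. FGA lies above and FGG below the untreated samples after GO, F7, MASP1 and SERPING1 are higher and MBL2 is lower after GO, and C9 exceeds 1 CPM in the GO–Rg3–DOX samples alone.

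C3, the component on which all complement pathways meet, was at 1055 to 1067 CPM in untreated samples, 1326 to 1413 after GO, 1079.7 to 1394 after GO–Rg3 and 1948 to 2355 after GO–Rg3–DOX. It rose after GO–Rg3–DOX by 0.98 (adjusted p = 1.4e-06), while the value after GO, 0.36 (adjusted p = 0.0153), did not pass and did with DESeq2. CFB encodes factor B, the protease of the alternative pathway. CFB was at 3.12, 2.97 and 3.70 CPM in the untreated samples, 3.45, 3.85 and 3.93 after GO, 3.92, 3.02 and 3.06 after GO–Rg3 and 8.03, 8.23 and 7.66 after GO–Rg3–DOX. Only the GO–Rg3–DOX samples stood apart, and the log2 fold change of CFB was 1.28 (SE 0.14, adjusted p = 1.2e-06); a readthrough gene model covers 42.3% of its exon bases and had 0 counts.

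The terminal pathway builds the membrane pore. Its 5 genes other than C9 all rose after GO–Rg3–DOX, beside 25.5% of all genes. None of them passed after GO, where 12.1% of all genes were higher and 15.4% lower. C9, the component that polymerizes into the pore, reached the filter on low counts in the GO–Rg3–DOX samples alone, so its values are given as a description with no test (chromosome 5 from 39284242 to 39371426 on GRCh37). It had 2, 0 and 2 counts in the untreated samples, 0, 0 and 1 after GO, 1, 0 and 0 after GO–Rg3, and 29, 34 and 32 after GO–Rg3–DOX. The 95 counts after GO–Rg3–DOX and 4 in untreated samples gave, per normalized library size, a ratio of 33.8 with a 95% exact interval of 12.8 to 126.7, which covers counting error only. C6 was at 0.741, 0.448 and 0.353 CPM in the untreated samples, 0.548, 0.642 and 0.424 after GO, 0.460, 0.482 and 0.283 after GO–Rg3 and 1.19, 1.37 and 0.953 after GO–Rg3–DOX. C8B, one of the chains of the eighth component, was at 4.84, 4.19 and 4.24 CPM in the untreated samples, 4.03, 4.41 and 3.20 after GO, 4.22, 4.05 and 3.65 after GO–Rg3 and 8.65, 9.74 and 9.80 after GO–Rg3–DOX. C8G was at 0.476, 0.224 and 0.400 CPM in the untreated samples, 0.627, 0.375 and 0.651 after GO, 0.433, 0.161 and 0.515 after GO–Rg3 and 0.948, 0.970 and 1.14 after GO–Rg3–DOX. For C6, C8B and C8G the GO–Rg3–DOX samples were above the other 9, and C6 and C8G stayed near 1 CPM. The log2 fold change was 1.19 (SE 0.30, adjusted p = 0.00294) for C6, 1.09 (SE 0.14, adjusted p = 5.2e-06) for C8B and 1.44 (SE 0.36, adjusted p = 0.0023) for C8G. The call of C6 did not hold without untreated replicate 2, untreated replicate 3 or GO–Rg3–DOX replicate 2 (log2 fold change 0.96 to 1.11, adjusted p = 0.0129 to 0.0205), and that of C8G did not hold without untreated replicate 2 (log2 fold change 1.22, adjusted p = 0.012) or with a GC offset. C5, cut by the convertase to start pore assembly, was at 177 to 186 CPM untreated and 347 to 368 CPM after GO–Rg3–DOX, a log2 fold change of 0.97 (adjusted p = 3.4e-06). C8A was at 8.18 to 8.76 and 14.05 to 17.6 CPM, a log2 fold change of 0.87 (adjusted p = 1.5e-05).

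Of the complement regulators, SERPING1 changed the most. It encodes the C1 inhibitor, which also inhibits plasma kallikrein and active factor XII. SERPING1 was at 88.1, 89.3 and 90.9 CPM in the untreated samples, 158, 133 and 150.5 after GO, 110.2, 85.4 and 97.0 after GO–Rg3 and 347, 263 and 272 after GO–Rg3–DOX. The GO samples lay above all untreated and GO–Rg3 samples, and the GO–Rg3–DOX samples above those, with replicate 1 the highest. SERPING1 had a log2 fold change of 0.72 (SE 0.12, adjusted p = 3.2e-04) after GO and 1.72 (SE 0.12, adjusted p = 1.4e-08) after GO–Rg3–DOX, and was lower after GO–Rg3 than after GO at -0.59 (SE 0.12, adjusted p = 0.00274). The last call did not hold without GO replicate 3, GO–Rg3 replicate 2 or GO–Rg3 replicate 3 (log2 fold change -0.59 to -0.51, adjusted p = 0.012 to 0.015). C4BPB, the beta chain of the C4b-binding protein that carries protein S, was at 26.1, 30.0 and 30.9 CPM in the untreated samples, 28.7, 29.5 and 27.1 after GO, 21.1, 30.8 and 31.0 after GO–Rg3 and 48.2, 60.0 and 58.8 after GO–Rg3–DOX. Its untreated, GO and GO–Rg3 samples overlapped, and it rose after GO–Rg3–DOX by 0.94 (adjusted p = 2.7e-05) and against GO–Rg3 by 1.01 (SE 0.14, adjusted p = 1.4e-05). C4BPA, the alpha chain, and CFI, the protease that cleaves C3b and C4b, rose after GO–Rg3–DOX by 0.64 (adjusted p = 1.8e-04) and 0.83 (adjusted p = 2.3e-05), and at -0.37 (adjusted p = 0.019) and -0.29 (adjusted p = 0.0708) did not pass after GO.

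The comparison of GO–Rg3 with GO was made at equal dose. The paper reports that GO–Rg3 was heated with acid and that its flakes were larger, thicker and less negatively charged. Rg3 and these properties cannot be told apart here. Of the 41 genes 0 were higher and 4 lower, beside 7.33% and 6.25% of all genes, and 0 passed 2-fold, beside 2.77%. The lower genes were F7, SERPIND1, SERPING1 and MASP1, all of them higher after GO than in untreated cells. As both comparisons use the same GO samples, that is not independent. By unadjusted p below 0.05, 6 were higher and 11 lower, 0 of them past 2-fold, and DESeq2 called 3 higher (FGG, PROS1 and MBL2) and 6 lower. The median log2 fold change was -0.16, beside -0.02 over all genes. It moved to -0.017 beside 0.032 with a GC offset, to -0.0059 beside 0.12 with library totals alone, and to -0.074 beside -0.015 without GO–Rg3 replicate 2. Single libraries decided several calls. Without GO–Rg3 replicate 1, 7 genes were lower and 2 higher, and leaving out GO–Rg3 replicate 2 or GO–Rg3 replicate 3 left 2 lower. Leaving out GO replicate 2 gave 3 higher. With only the 6 samples compared 0 were lower by edgeR, where F7, SERPIND1, SERPING1 and MASP1 all missed the threshold. With library totals alone 1 was lower.

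Set against GO–Rg3, GO–Rg3–DOX at the lower dose gave 39 higher and 0 lower genes, beside 27.4% and 29.7% of all genes, and 23 past 2-fold, beside 30.7%. The median log2 fold change was 1.12, beside -0.0043 over all genes. Without C9, 38 of 40 were higher and 22 past 2-fold. KLKB1 at 0.14 (adjusted p = 0.689) and MASP1 at 0.08 (adjusted p = 0.377) did not pass. The count of 0 lower genes by edgeR was also 0 at an unadjusted p below 0.05 and with DESeq2. With library totals alone, 25 were higher, 1 was lower and 6 were past 2-fold, with a median of 0.67 beside -0.45 over all genes. The lower gene was MASP1, whose direction turned from 0.08 with TMM to -0.36 with library totals. Left-out libraries ended the calls of C4A without GO–Rg3 replicate 3, GO–Rg3–DOX replicate 1 or GO–Rg3–DOX replicate 3 (log2 fold change 0.80 to 1.15, adjusted p = 0.02 to 0.0279), of MASP2 without GO–Rg3 replicate 3 or GO–Rg3–DOX replicate 2 (log2 fold change 0.79 to 0.82, adjusted p = 0.0111 to 0.0112) and of C8G without GO–Rg3–DOX replicate 3 (log2 fold change 1.35, adjusted p = 0.0107).

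Log2 fold changes of the genes went with the GC content of their longest annotated transcript, which ran from 35.4% for F13B to 63.9% for C8G. After GO, Pearson's r was 0.74 and Spearman's rho 0.72 across 40 genes, with C9 left out, which are not independent replicates and share the 6 libraries. All genes that fell after GO (F13B, FGG, PROS1 and MBL2) had a GC content under 40%. An offset for GC content fitted over all genes lowered r to 0.36 after GO. With it F7 was at 0.74, MBL2 at -0.83, PROS1 at -0.26, FGA at 0.43 and FGG at -0.26. Then 0 of the 41 genes were past 2-fold, 8 were higher and 3 lower. Of all 17092 genes, 891 were past 2-fold, 2228 higher and 2937 lower with the offset. For GO–Rg3 against GO r went from -0.70 to -0.28 with the offset. After GO–Rg3–DOX r went from 0.59 to -0.29, with 37 genes higher, 27 past 2-fold and a median of 1.15. Of all 17092 genes, 5144 were then higher and 4394 past 2-fold, with a median of 0.06. The median of the 41 genes was 1.09 above that of all genes, and 1.13 above it without the offset. The offset moved F13B to 1.11 and MBL2 to 0.63, which then passed, and left MASP1 at 0.12.

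**Figure D5:**
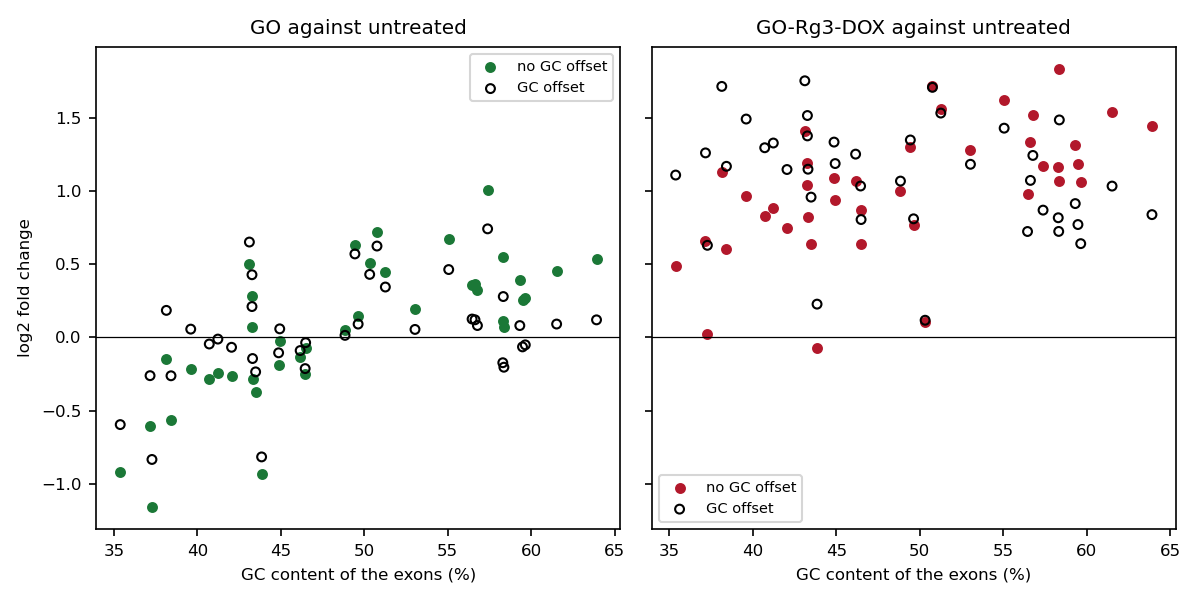
Log2 fold change (vertical axis) of 40 genes against GC content in percent (horizontal axis), after GO in the left panel and GO–Rg3–DOX in the right panel, each against untreated samples. The GC content is that of the longest annotated transcript, though the axis label names the exons. Filled points are without and open circles with the GC offset. After GO the filled points climb with GC content from F13B and MBL2 at the lower left, with r = 0.74, and after GO–Rg3–DOX nearly all points lie above 0 with either fit.

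Genes of the same pathways outside the 42 were counted as well. The shares to read them against are those of all genes tested, of which 12.1% were higher and 15.4% lower after GO, and 25.5% were higher and 30.5% lower after GO–Rg3–DOX. Of 21 other coagulation and fibrinolysis genes, 16 were tested, 1 rose and 3 fell after GO, 0 changed in either direction after GO–Rg3, and 7 rose and 1 fell after GO–Rg3–DOX. The GO counts are near those shares, and the genes behind the lower count were the plasminogen activator PLAU at -1.33 (adjusted p = 2.7e-06) and the thrombin and trypsin receptors F2R at -1.12 (adjusted p = 6.0e-05) and F2RL1 at -0.60 (adjusted p = 0.0022). Tissue factor (F3), the partner of factor VII, rose after GO–Rg3–DOX by 0.97 (adjusted p = 9.3e-06), and F2RL1 fell by 1.17 (adjusted p = 1.8e-06). Of the 7 genes for the vitamin K cycle and secretion of clotting factors, 5 rose and 1 fell after GO–Rg3–DOX. GGCX, the carboxylase that clotting factors need, had 1.02 (adjusted p = 2.3e-07), the protease FURIN 1.09 (adjusted p = 3.9e-05), and the reductase VKORC1L1 was the one that fell, at -1.13 (adjusted p = 2.4e-08). After GO 0 rose and 2 fell, VKORC1L1 and MCFD2.

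Of 25 other complement genes, 11 were tested and 6 were at 0 counts in all 12 samples, among them C1QA and C1QC, which macrophages make. After GO 1 rose and 3 fell, and after GO–Rg3–DOX 7 rose and 0 fell, beside 12.1% and 15.4% of all genes after GO and 25.5% and 30.5% after GO–Rg3–DOX. The genes that fell after GO were the membrane inhibitors of complement CD46 at -0.79 (adjusted p = 0.00588), CD55 at -0.64 (adjusted p = 0.00136) and CD59 at -0.45 (adjusted p = 0.0045). CLU, a secreted inhibitor of the terminal complex, rose after GO–Rg3–DOX by 1.29 (adjusted p = 3.2e-07) on the log2 scale, with 1525 ± 45.2 CPM untreated and 3722 ± 371 CPM after it (mean ± SD, n = 3). CFD, a protease of the alternative pathway, rose by 1.34 (adjusted p = 5.6e-04).

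Marker genes moved with the groups too. Their counts stand beside 12.1% higher and 15.4% lower of all genes after GO, and 25.5% and 30.5% after GO–Rg3–DOX. Hepatocyte markers summed to 23764 to 23896 CPM in untreated samples, 15207 to 18002 after GO, 18327 to 21836 after GO–Rg3 and 31836 to 36494 after GO–Rg3–DOX, where 8 of 10 rose and 1, HNF4A, fell. Secreted products such as SERPINA1 at 1.28 (adjusted p = 4.2e-06), AHSG at 1.29 (adjusted p = 3.0e-08) and APOA1 at 1.08 (adjusted p = 1.6e-05) rose there, beside a median of 1.07 for the 41 genes. After GO 1 rose and 3 fell, with AFP at -1.07 (adjusted p = 1.6e-04). Fibroblast and stellate markers summed to 4.88 to 6.14 CPM untreated and 13.2 to 16.6 after GO–Rg3–DOX, with 4 of 5 tested genes higher and DCN near 0 in every group. Megakaryocyte markers summed to 0.118 to 0.132 CPM untreated and 2.97 to 4.35 after GO–Rg3–DOX, with PF4, PPBP and ITGA2B higher and GP9 at 0. Outside GO–Rg3–DOX their sum reached 0.257 CPM at most. They therefore passed the filter on low counts only through the GO–Rg3–DOX samples, and their calls add no support. Leukocyte markers summed to 149 to 155 CPM untreated and 116 to 163 after GO–Rg3–DOX, nearly all of it LYZ, with 2 of 3 tested genes higher. Endothelial markers reached 0.700 CPM at most, with 0 of 1 tested gene called in any comparison. The part of these markers in the values of the clotting and complement genes was not tested.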

How the data were processed

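RNA from 12 samples of Huh7 cells was sequenced. The authors made stranded mRNA libraries, used the NGI-RNAseq pipeline with GRCh37, with featureCounts as the counter, and the counts deposited by the authors are whole numbers without normalization. Versions, annotation release and use of strand are not given in the sources used here, which leaves 21 genes that share exon bases with another gene model, and C4A and C4B, uncertain. Genes were kept where 3 samples or more reached 10 counts. Counts were scaled by TMM and fitted over all 12 samples with edgeR 4.0.16 (quasi-likelihood test, tested on simulated data) in R 4.3.3, and p-values were adjusted by Benjamini-Hochberg over 17092 genes in each of 5 comparisons. The SE is the size of the log2 fold change over the root of F. Calls needed an adjusted p below 0.01, and for 2-fold an absolute log2 fold change above 1. Positions, exon lengths and GC content came from a GENCODE annotation on GRCh37. Exon lengths joined all transcripts of a gene, and GC content was that of its longest transcript. Alternatives were RLE scaling, library totals, mitochondrial genes left out, other filters, DESeq2 1.42.0, a replicate block, a GC offset, only the 6 samples compared, each library left out and an adjusted p below 0.05. The members, roles and lists were chosen with earlier results of these data known. Values in every sample are given for members with at least 1 CPM in a group that passed 2-fold in any comparison or were among the 3 largest called changes of one. FGB, FGG and MASP1 were added after their values were seen. Some genes of the other lists are counted but not reported here by name.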

Additional observations from a re-analysis of the deposited data

How the results depend on the processing

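Of the counts of called genes, 225 stayed on their side under the alternatives, 17 rose and 13 fell beyond 1.5 times. For single genes, a value short of the threshold in both fits counted as the same even where its sign changed. F2 after GO did so, at 0.11 in the main fit and -0.17 with a GC offset. Of the log2 fold changes of single genes, 3109 counted as the same, 58 gained and 78 lost the call, and 1 turned into a call in the other direction. That 1 was MASP1 in GO–Rg3–DOX against GO–Rg3, at -0.36 (adjusted p = 0.00565) with library totals alone. Library totals alone also gave 7 genes past 2-fold against 22 after GO–Rg3–DOX, 25 higher against 39, 1 lower against 0 and 6 past 2-fold against 23 for GO–Rg3–DOX against GO–Rg3, and 1 lower against 4 for GO–Rg3 against GO. After GO, 11 genes were higher against 7 with DESeq2, with only the 6 samples compared and at an adjusted p below 0.05, where 8 were lower against 4. Past 2-fold after GO were 2 genes, 1 with no filter and 0 with a GC offset or with a GC offset and the replicate block. After GO–Rg3, 1 gene was lower against 0 with no filter or DESeq2. For GO–Rg3 against GO, 1 gene was higher against 0 with RLE scaling or mitochondrial genes left out, 3 were with no filter, DESeq2, the replicate block or an adjusted p below 0.05, where 8 were lower, and 0 were lower with only the 6 samples compared. The causes were not tested.

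With each library left out, the genes higher after GO were 4 to 7, lower 3 to 4 and past 2-fold 0 to 3. After GO–Rg3–DOX 33 to 35 were higher and 21 to 23 past 2-fold. For GO–Rg3 against GO 0 to 3 were higher and 2 to 7 lower, and for GO–Rg3–DOX against GO–Rg3 36 to 39 were higher and 19 to 26 past 2-fold. With the replicate block, 9 genes were higher and 5 lower after GO, 36 were higher after GO–Rg3–DOX, 3 were higher and 6 lower for GO–Rg3 against GO, and 39 were higher for GO–Rg3–DOX against GO–Rg3. The labels only number the replicates. Deviations of samples with the same number correlated with a median r of 0.048 and a lowest of -0.024. Between different numbers the median r was -0.034, with a range of -0.257 to 0.212. Of 12 samples, 10 correlated best with a sample of their own number. The main fit has no replicate block, and a pairing by number was not tested. C4A, C4B, C6, C8G and KLKB1, at about 1 CPM or less, rest on few counts.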

Other observations

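Liver transcription factors fell after GO–Rg3–DOX, where the clotting and complement genes rose. Of 13 such factors 12 were tested, and after GO–Rg3–DOX 0 rose and 9 fell by edgeR's quasi-likelihood test, beside 25.5% and 30.5% of all genes. FOXA1 fell from 62.3 ± 1.14 to 5.24 ± 0.0666 CPM (mean ± SD, n = 3), a log2 fold change of -3.57 (adjusted p = 2.6e-12). FOXA3 had -2.67 (adjusted p = 1.4e-09), CEBPD -2.01 (adjusted p = 5.3e-08) and HNF4A -1.02 (adjusted p = 1.8e-06). CEBPB at -0.39 (adjusted p = 0.0374) did not pass. After GO 4 of the 12 rose and 2 fell, beside 12.1% and 15.4% of all genes. Among those that rose were HNF4A at 0.63 (adjusted p = 5.6e-04) and CEBPD at 1.03 (adjusted p = 9.6e-05). The part of these factors in the values of the clotting and complement genes was not tested.

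Genes of the IL-6 arm of the acute phase response, which in hepatocytes raises fibrinogen and several complement components, rose after GO in 5 and fell in 0 of 13 cases tested, beside 12.1% and 15.4% of all genes. SOCS3, a feedback target of STAT3, had a log2 fold change of 0.78 (adjusted p = 3.1e-04) after GO, SAA1 1.14 (adjusted p = 7.9e-04) and IL6R 0.98 (adjusted p = 2.2e-05). After GO–Rg3–DOX the share that rose was near that of all genes, 25.5%, and the share that fell was below 30.5%. The 3 that rose were LBP at 1.28 (adjusted p = 5.8e-09), HP at 0.86 (adjusted p = 4.6e-05) and SAA1 at 0.74 (adjusted p = 0.00796), and the 2 that fell were JAK2 at -1.48 (adjusted p = 1.3e-04) and SAA2 at -1.23 (adjusted p = 4.1e-04). SAA1 and SAA2 are near-identical copies whose reads may be split or left out.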
